A study of Mus musculus with 12 samples.

Results

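Hemoglobin of the adult red cell is a tetramer of alpha and beta globin chains with bound heme. The genes of the chains lie in separate clusters, and are transcribed at a very high rate in maturing erythroid cells under the transcription factors GATA1 and KLF1, the second of which binds CACCC sequences. Free alpha chains are unstable and are held by the alpha-hemoglobin stabilizing protein encoded by Ahsp until they join a beta chain.

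Probe sets of the adult globin genes and of Ahsp were followed in KSL cells from the bone marrow of 10-week-old C57Bl/6 mice. Irradiated mice received 550 cGy from a cesium source and gave 6 arrays, and non-irradiated controls (0 cGy) gave 6 more. The KSL gate keeps marrow cells that carry Kit and Sca-1 and lack lineage markers, a population of stem cells and early progenitors that precedes the stages of bulk globin synthesis. Day 14 after irradiation is the time that the series design gives. The members are all rows with a symbol of Hba- or Hbb- or Ahsp in the table of changed probe sets that the authors deposited, which gave 6 probe sets of the 451 in that table with array values and of the 22626 in all. They name 7 genes, of 350 named in the table. Alpha A (1417714_x_at), alpha B (1428361_x_at) and alpha C (1452757_s_at) each name both Hba-a1 and Hba-a2. Beta A (1417184_s_at) names Hbb-b1, Hbb-b2, Hbb-bs and Hbb-bt, and beta B (1427865_at) names Hbb-b2. Ahsp has 1 probe set (1449077_at). By the array maker's naming, s marks a probe set shared by several transcripts and x one whose probes may also bind other transcripts, so gene copies cannot be told apart with them.

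That table holds probe sets with at least a 2-fold difference between irradiated and control arrays and an unadjusted p under 0.05, so the members were selected on the difference between the groups, and these differences are given as a description with no test. The member nearest to the fold limit is alpha A, at a ratio of 2.28 in the authors' deposited table. The lowest ratio among the higher probe sets of that table is 2.00, and probe sets outside it carry no name here, so other globin probe sets that differed less are unknown. Kit and Ly6a, the genes of the sorting markers, had no named probe set with which to check the sort. The array medians lay between 6.94 and 7.01 on the log2 scale. Separate mice are not stated for the arrays, so the errors may be technical. In RNA of a cell pool, more cells of a type and more RNA per cell cannot be told apart.

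The stretches before the starts of the globin genes are shown for what the copies and the clusters share in sequence. They are not transcribed and are not what the probes bind. Of the 7 member genes, 4 had an entry in the RefSeq promoter table (GRCm38.p6), and Hbb-b1, Hbb-b2 and Ahsp are named only. The 250 bases before each start are given 5′ to 3′ on the gene's strand. Capitals mark 4 short motifs on either strand. The core of the box bound by KLF1 was searched as CACCC and the general CCAAT box by its own letters. The core of the TATA element was searched as TATAA, and that of the GATA factor motif as GATAA. The Hba-a1 and Hba-a2 stretches lie at chr11:32283422-32283671 and chr11:32296242-32296491 on the plus strand, and those of Hbb-bs and Hbb-bt at chr7:103827929-103828178 and chr7:103813924-103814173 on the minus strand.
Hba-a1: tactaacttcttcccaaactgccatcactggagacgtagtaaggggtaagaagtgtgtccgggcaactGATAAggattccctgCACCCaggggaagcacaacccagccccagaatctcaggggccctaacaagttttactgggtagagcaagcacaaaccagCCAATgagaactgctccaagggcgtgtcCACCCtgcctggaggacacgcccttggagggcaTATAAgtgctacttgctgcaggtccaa
Hba-a2: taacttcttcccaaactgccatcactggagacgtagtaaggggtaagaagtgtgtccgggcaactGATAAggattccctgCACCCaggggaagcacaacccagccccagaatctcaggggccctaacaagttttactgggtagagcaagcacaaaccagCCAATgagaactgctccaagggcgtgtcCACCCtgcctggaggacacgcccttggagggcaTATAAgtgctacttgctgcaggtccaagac
Hbb-bs: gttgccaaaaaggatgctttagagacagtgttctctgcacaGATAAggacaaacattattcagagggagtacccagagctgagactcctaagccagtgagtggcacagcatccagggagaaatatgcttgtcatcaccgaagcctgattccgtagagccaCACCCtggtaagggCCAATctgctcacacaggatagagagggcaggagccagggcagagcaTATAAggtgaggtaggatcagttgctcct
Hbb-bt: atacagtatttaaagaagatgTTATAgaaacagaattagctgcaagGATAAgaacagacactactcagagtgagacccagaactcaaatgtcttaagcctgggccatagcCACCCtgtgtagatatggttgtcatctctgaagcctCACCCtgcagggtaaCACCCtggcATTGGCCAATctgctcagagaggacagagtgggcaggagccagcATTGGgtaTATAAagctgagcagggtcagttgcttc
The alpha stretches were 97.6% identical over 253 aligned columns, being one sequence moved by a few bases, and the beta stretches 70.9% identical over 261. Between the clusters identity was 48.5% to 50.7%. All 4 promoters held all 4 motifs, against 0.968% of the 32851 promoters of the table over the same length. The promoters of a cluster share sequence, so the 4 are not independent, and no enrichment is read from this share. Singly, CACCC was found in 52.0% of those promoters, the CCAAT box in 33.8%, the TATA core in 22.8% and the GATA core in 22.6%. In each of the 4 promoters a TATA core began between -30 and -27, counted from the gene's start. In Hba-a1 the CCAAT box began at -88, between CACCC matches at -167 and -60. In Hbb-bs it began at -76, nearer to the start than the one CACCC match, at -90. The motifs did not overlap each other in these windows. A match describes letters and shows no bound factor.

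All 6 probe sets were higher in irradiated KSL cells, by 2.28-fold to 9.16-fold. The largest difference was that of an alpha globin probe set followed by that of Ahsp, and these are also the 2 highest ratios among the 178 higher probe sets of the authors' deposited table. The median log2 difference of the 6 was 2.10, against 0.01 over all probe sets. In limma, fitted to all probe sets, 6 of the 6 passed a Benjamini-Hochberg adjusted p under 0.05 as higher, as did 5.87% of all probe sets tested. The table was selected on the same contrast, and nothing is read from this count. In 3 of the 6, Ahsp and both beta globin probe sets, every irradiated array lay above every control array, which held for 3.0% of all probe sets. The selection bears on this count as well. The share among the other rows of the deposited table was not computed, so nothing is read from it either.

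**Figure D1:**
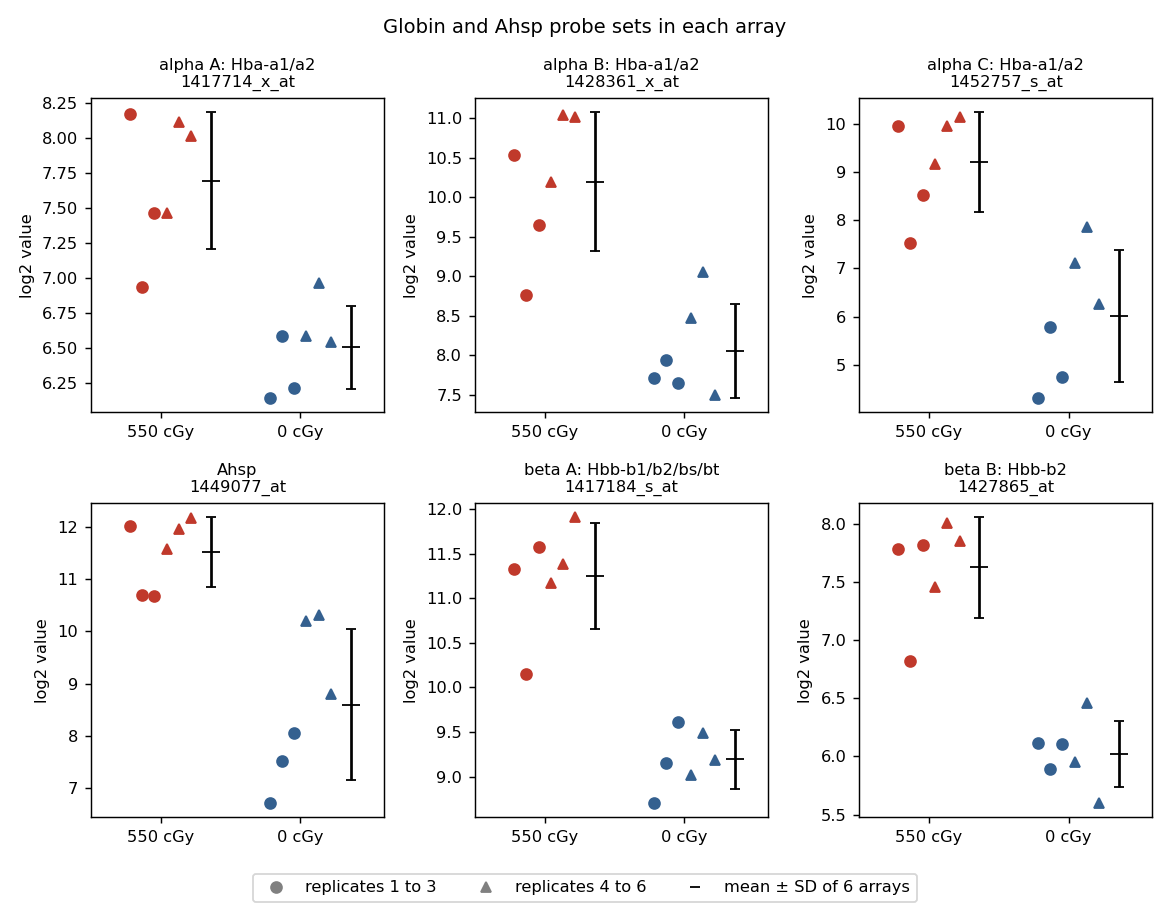
Log2 value of each globin and Ahsp probe set (6 panels, each with its own vertical axis) in irradiated (550 cGy) and control (0 cGy) arrays, with circles for replicates 1 to 3, triangles for replicates 4 to 6 and bars for the mean ± SD of 6 arrays. The control triangles sit above the control circles for alpha C (lowest triangle 6.26, highest circle 5.78) and for Ahsp (8.81 and 8.05), and are mixed with them for both beta globin probe sets.

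Alpha globin RNA differed most in the probe set alpha C. Its lowest, median and highest log2 values were 7.52, 9.55 and 10.14 in irradiated arrays, against 4.31, 6.02 and 7.86 in control arrays. The mean was 9.21 ± 1.03 in irradiated and 6.01 ± 1.36 in control arrays (SD, n = 6 each), a log2 difference of 3.20 (SE 0.70) or 9.16-fold. The groups overlapped by a single array on each side, since control replicate 5 (7.86) lay above irradiated replicate 2 (7.52). Alpha B had 8.75, 10.36 and 11.03 in irradiated arrays, against 7.50, 7.82 and 9.05 in control arrays. Its log2 difference was 2.15 (SE 0.43), or 4.42-fold. Alpha A had 6.93, 7.74 and 8.17 in irradiated arrays, against 6.14, 6.56 and 6.97 in control arrays, a log2 difference of 1.19 (SE 0.23) or 2.28-fold. The same control and irradiated replicates overlapped in both. The 3 probe sets name the same 2 genes and differed in the size of the difference by more than their standard errors between the ends, so no single fold stands for alpha globin RNA.

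Ahsp had 10.68, 11.76 and 12.17 as its lowest, median and highest log2 values in irradiated arrays, against 6.72, 8.43 and 10.32 in control arrays. The means were 11.51 ± 0.67 in irradiated and 8.60 ± 1.45 in control arrays (SD, n = 6 each), and the log2 difference was 2.91 (SE 0.65), or 7.52-fold. The lowest irradiated array lay 0.36 above the highest control array. The range over the 6 control arrays was 3.60 and that over the 6 irradiated arrays 1.49. This did not hold in both replicate sets. The SD was 0.67 in control and 0.77 in irradiated arrays within replicates 1 to 3, and 0.84 and 0.31 within replicates 4 to 6. Of all probe sets 0.0972% had a control SD at least as large as that of Ahsp, and 0.137% one at least as large as that of alpha C, against a median control SD of 0.23.

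Beta globin RNA was higher with no overlap in both probe sets. Beta A, the probe set of all 4 beta genes, had 10.15, 11.35 and 11.91 in irradiated arrays, against 8.70, 9.17 and 9.62 in control arrays, a log2 difference of 2.06 (SE 0.28) or 4.16-fold. Beta B, named for Hbb-b2, had 6.83, 7.81 and 8.01 in irradiated arrays, against 5.60, 6.03 and 6.46 in control arrays, a log2 difference of 1.61 (SE 0.21) or 3.04-fold. Control SDs were 0.33 and 0.29, so beta globin varied far less among the controls than Ahsp or alpha C. Hbb-b1 and Hbb-b2 are the major and minor adult beta genes of the diffuse haplotype of some mouse strains, while C57BL/6 mice carry the single haplotype with Hbb-bs and Hbb-bt. Which transcripts the probe set named for Hbb-b2 reads in these C57Bl/6 mice was not tested.

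The alpha and beta probe sets were also averaged. The mean of the 3 alpha probe sets was 9.03 ± 0.79 in irradiated and 6.86 ± 0.72 in control arrays, and that of the 2 beta probe sets 9.44 ± 0.50 in irradiated and 7.61 ± 0.25 in control arrays (SD, n = 6 each). The log2 differences were 2.18 (SE 0.44) and 1.83 (SE 0.23). The alpha mean minus the beta mean, taken within each array, differed by 0.34 (SE 0.33) between irradiated and control arrays, about its own standard error. Ahsp minus the alpha mean differed by 0.73 (SE 0.37). Both pooled values averaged unequal replicate sets. For alpha minus beta the difference was 0.62 within replicates 1 to 3, against 0.07 within replicates 4 to 6. For Ahsp minus alpha these values were 1.43 and 0.04. These values compare differences between the groups, and say nothing of the relative amounts of the chains.

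The same single arrays were the lowest or highest of their group in most probe sets, but none was an outlier by Dixon's gap test. The gap from the lowest or highest array of a group to the next was at most 0.58 of the group's range. That largest gap was for irradiated replicate 2 in beta A, and lay below the test's critical value for 6 arrays. Irradiated replicate 2 was the lowest irradiated array in 5 of the 6 probe sets, with Ahsp as the exception, where replicate 3 (10.68) lay just below it (10.69). Control replicate 5 was the highest control array in 5 of the 6, the exception being beta A, where replicate 3 was higher (9.62 and 9.49). The alpha probe sets overlapped only through this pair of arrays. Leaving out either one therefore had to leave all 6 probe sets without overlap, and nothing further is read from it.

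Earlier results of these data had shown that replicates 4 to 6 stand apart from replicates 1 to 3, a split that the labels do not name as a batch. Among the controls this split was wide for alpha C and Ahsp and near 0 for beta globin. Alpha C had 7.12, 7.86 and 6.26 in control replicates 4 to 6, against 4.31, 5.78 and 4.74 in control replicates 1 to 3, a shift of 2.13. Ahsp had 10.19, 10.32 and 8.81 in control replicates 4 to 6, against 6.72, 7.52 and 8.05 in control replicates 1 to 3, a shift of 2.34. A shift of at least that size was found in 0.115% and 0.0751% of all probe sets, and the median shift over all of them was -0.01. The other alpha probe sets shifted by 0.57 and 0.38. The shift was 0.07 in beta A and -0.04 in beta B, so the beta globin level of the controls was nearly the same in both sets. Among irradiated arrays the shift was 0.77 for Ahsp, 0.34 to 1.10 for the alpha and 0.30 to 0.47 for the beta probe sets.

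Within each replicate set every irradiated array lay above every control array in all 6 probe sets. The members were selected on a difference over these same arrays, and groups of 3 arrays separate more easily than groups of 6. The share of all probe sets that separate within a set was not computed, so nothing is read from this count. The fold differed between the sets in either direction. Ahsp was 13.0-fold higher in irradiated replicates 1 to 3 and 4.36-fold higher in irradiated replicates 4 to 6, and alpha C 13.2-fold and 6.37-fold higher. Alpha B was 3.68-fold higher in replicates 1 to 3 and 5.31-fold higher in replicates 4 to 6, and alpha A 2.31-fold and 2.25-fold higher. The log2 differences of the beta probe sets were 1.86 and 1.44 in replicates 1 to 3 and 2.25 and 1.77 in replicates 4 to 6. Whether the sets differed in these changes was not tested.

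**Figure D2:**
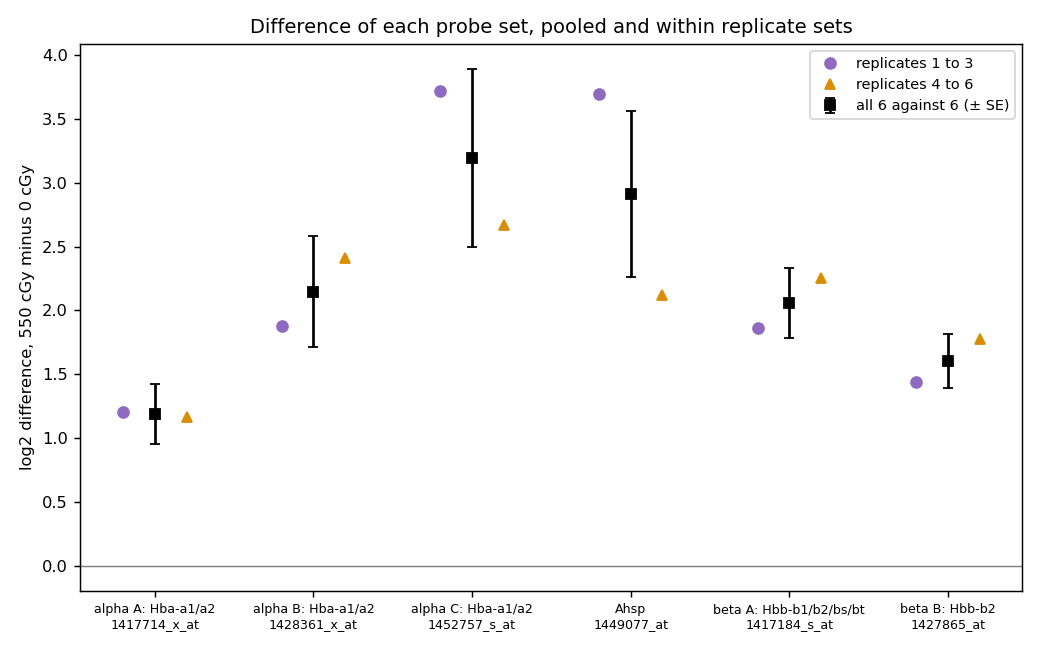
Log2 difference of irradiated (550 cGy) minus control (0 cGy) arrays for each probe set, with black squares and bars for all 6 against 6 arrays ± SE, circles for replicates 1 to 3 and triangles for replicates 4 to 6. Ahsp (3.70 and 2.12) and alpha C (3.72 and 2.67) had the widest gaps between the replicate sets, with the larger value in replicates 1 to 3.

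How the probe sets varied together from array to array within a group did not enter the choice directly, although the p behind the table depends on the spread of each probe set within the groups. Deviations from the group means over the 12 arrays were correlated for each of the 15 pairs, as a description with no p, since arrays of one set share whatever set them apart. The 3 pairs of alpha probe sets had r of 0.85 to 0.89, and the pair of beta probe sets 0.75. Ahsp had r of 0.68 to 0.91 with the 3 alpha probe sets and of 0.32 and 0.39 with the 2 beta probe sets. With alpha C its r was 0.91 (Spearman's rho 0.94), and 0.89 without the 2 arrays farthest from the median of that probe set. For deviations taken within each replicate set it was 0.78 (rho 0.71). Among the 6 irradiated arrays alone this r was 0.95 and among the 6 control arrays alone 0.92. For the alpha mean and Ahsp r was 0.84 (rho 0.82), and 0.77 for deviations taken within each replicate set. For the beta mean and Ahsp r was 0.39 (rho 0.41), and 0.55 within replicate sets. Among irradiated arrays alone the r to Ahsp was 0.93 for the alpha mean and 0.61 for the beta mean. Among control arrays alone these were 0.90 and 0.39. The rho of the beta mean and Ahsp was 0.37 in either group. The alpha and beta means had an r of 0.67 (rho 0.60), which dropped to 0.31 without the 2 arrays farthest from the median of the alpha mean and was 0.74 (rho 0.72) within replicate sets. The difference between these correlations was not tested.

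**Figure D3:**
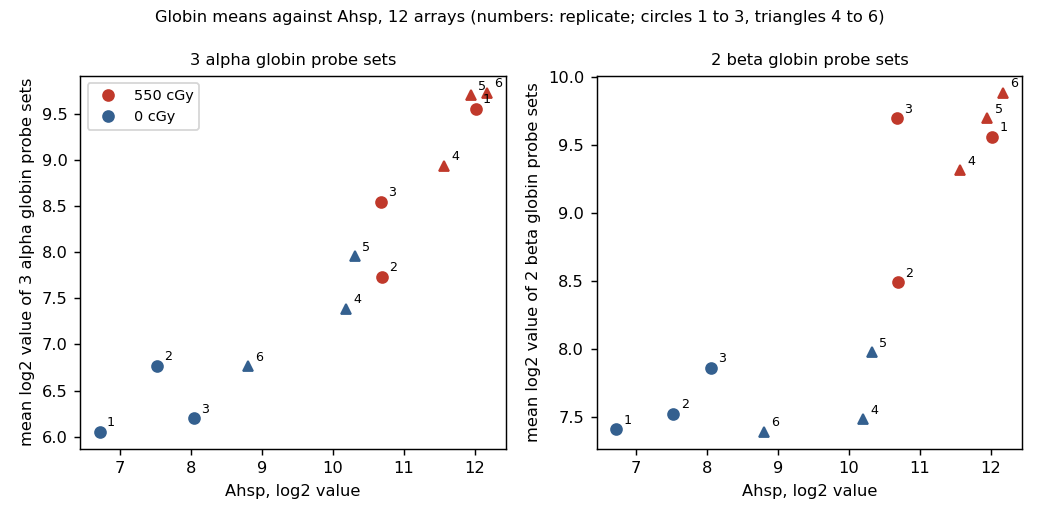
Mean log2 value of the 3 alpha globin probe sets (left) and of the 2 beta globin probe sets (right) against the log2 value of Ahsp in each array, with irradiated (550 cGy) and control (0 cGy) arrays in separate colours, circles for replicates 1 to 3, triangles for replicates 4 to 6 and numbers for the replicate. The alpha means run along with Ahsp through both groups, whereas the control beta means stay between 7.39 and 7.97 while Ahsp ranges from 6.72 to 10.32.

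The genes most like globin were sought by the same deviations, against the mean of the 5 globin probe sets. Of the 22620 other probe sets, 146 or 0.645% had an r over 0.8, of which 22 name 1 gene and 124 carry no name here or several. All 22 were higher in irradiated cells, as were 164 of all 431 non-member probe sets with array values that name 1 gene. Those that were higher had a median r of 0.59 and those that were lower one of -0.24. Only probe sets of the authors' table carry names, and the direction of the 124 is not given here. The 6 named genes with the highest r were Septin8, a septin (r = 0.95), Tspan33, a tetraspanin of erythroid and B cells (0.94), C1qtnf12, which encodes a secreted protein also known as adipolin (0.93), Add2, an adducin of the red cell membrane skeleton (0.93), Cdr2 (0.91) and Slc40a1, the iron exporter ferroportin (0.86). Other probe sets of these genes were less alike, with 0.73 for Septin8 and 0.56 for Add2 in their lowest. Of the 6 genes, 5 were again among the first 6 when deviations were taken within replicate sets, and 3 by Spearman's rho. The lowest r of a named gene was that of Satb1, a chromatin organizer of lymphoid cells, at -0.94. This was 1 of 3 named probe sets of Satb1, and the r of the others was higher.

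The other genes of red cell formation are known here only through the same table, so each of them differed by construction. Of 20 erythroid regulators 4 were named, and 4 rose past the threshold of limma. Klf1 was 6.92-fold higher, Epor, the erythropoietin receptor, 3.51-fold, Gata1 3.06-fold and Gfi1b, a repressor of erythroid and megakaryocytic cells, 2.09-fold. Of 22 genes of heme synthesis and iron 7 were named, and 6 rose. Blvrb, a biliverdin reductase, was 2.82-fold higher, and the heme synthesis genes Cpox and Alad were 2.62-fold and 2.17-fold higher. Steap3, a ferrireductase, and Slc11a2, an iron transporter, were 2.34-fold and 2.30-fold higher, and Tfrc, the transferrin receptor, had a ratio of 2.17 and did not pass. Of 26 genes of the red cell membrane and red cell enzymes 11 were named, and 8 rose, among them Rhag (3.57-fold) and Slc4a1, the band 3 anion exchanger (2.32-fold). Ermap, Pklr and Ank1 had ratios of 3.54, 3.07 and 2.86 and did not pass. None of these lists had a gene called lower. Over all probe sets 5.87% were called higher and 5.47% lower, but the list genes all come from the table of changed probe sets. Of the 431 non-member probe sets there with array values that name 1 gene, 164 were higher in irradiated cells. The median log2 differences of the lists, in the order given, were 1.71, 1.20 and 1.57. Of 7 embryonic and minor globin genes none was named, so their levels are not known here.

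The shift between the control replicate sets also differed among these genes. Of the 22 genes, 20 were higher in control replicates 4 to 6 than in control replicates 1 to 3. The median shift was 0.61, and 8 shifted by more than 1, against 1.28% of all probe sets with a shift of at least 1. The 22 genes come from the table of changed probe sets. Neither count was set beside the other rows of that table, so no trait particular to these genes is read from them. Ermap (1.51), Klf1 (1.40) and Tfrc (1.36) were among those that shifted by more than 1, as Ahsp and alpha C did. Rhag (-0.01) and Slc4a1 (0.11) shifted as little as beta globin, and Gfi1b was lower in control replicates 4 to 6 (-0.95). The control means of Rhag and Slc4a1 were low, at 5.47 and 5.78, against 9.19 for beta A and 6.02 for beta B. Whether a low signal hid a shift was not tested. The median r of these 22 genes to the globin mean was 0.66, against -0.03 over all other probe sets and 0.59 over the named probe sets that were higher in irradiated cells.

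**Figure D4:**
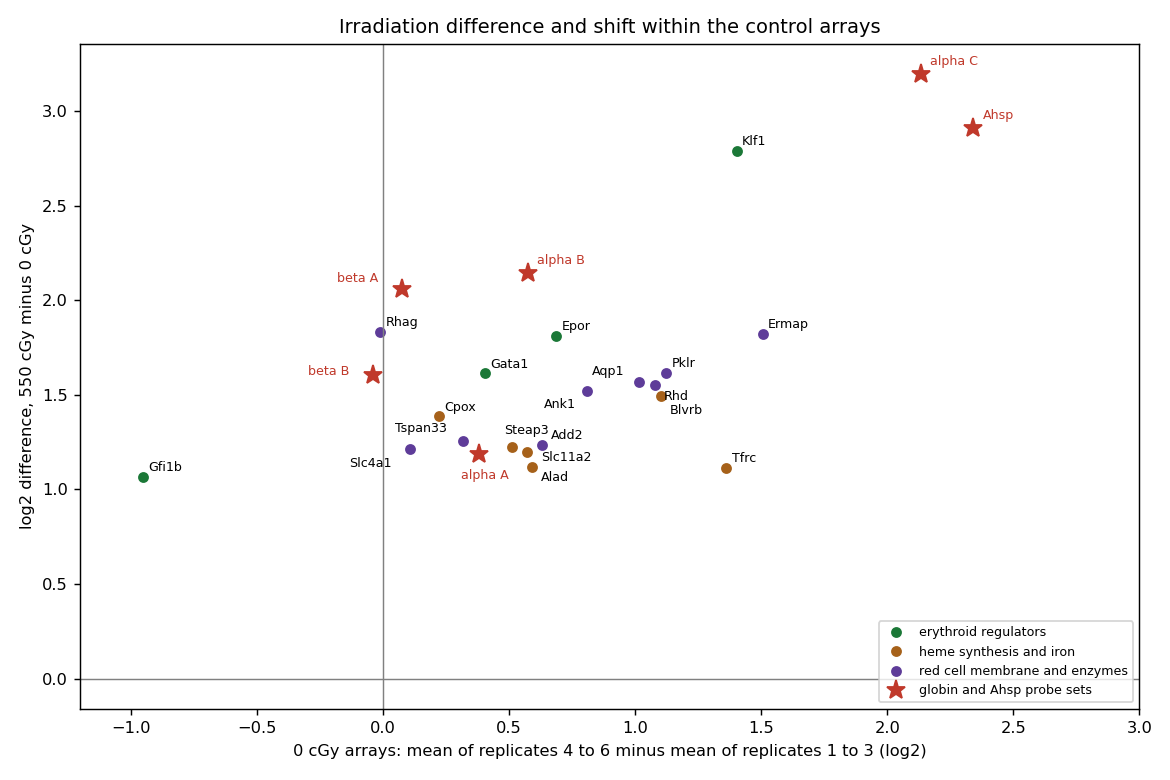
Log2 difference of irradiated (550 cGy) minus control (0 cGy) arrays (vertical) against the mean of control replicates 4 to 6 minus that of control replicates 1 to 3 (horizontal, log2) for the globin and Ahsp probe sets (stars) and 19 of the 22 named erythroid genes (circles, coloured by list). All points lie above 1 on the vertical axis because the table holds only 2-fold differences, and along the horizontal axis both beta globin probe sets lie near 0 and Ahsp at 2.34.

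Named markers of cell types differed in both directions. They too are known only through the table of changed probe sets, so each of them differed by construction. Over all probe sets 5.87% were called higher and 5.47% lower. Of the 431 non-member probe sets of that table with array values that name 1 gene, 164 were higher. The counts that follow are a description, and no change of a cell type is read from them. Of 11 markers of late erythroblasts and reticulocytes 3 were named, among them Slc4a1, and all 3 rose, with array means of 5.99 to 7.48 in irradiated and 4.87 to 5.81 in control arrays. Of 13 lymphoid markers 5 were named and all 5 fell, with array means of 6.86 to 8.01 in irradiated and 8.62 to 9.40 in control arrays. Of 12 markers of long-term stem cells 5 were named, of which 1 rose and 4 fell, with array means of 6.80 to 7.43 in irradiated and 7.35 to 8.32 in control arrays. Procr, which encodes the stem cell surface protein EPCR, and Hlf, a stem cell transcription factor, had r of -0.90 and -0.87 to Ahsp over the 12 arrays, and -0.62 and -0.52 within replicate sets. Both were lower in control replicates 4 to 6, by shifts of -1.10 and -1.23. Of the other stem cell markers Ndn had an r to Ahsp of -0.68, Robo4 of -0.13 and Slamf1 of -0.12, and within replicate sets these were -0.46, 0.64 and 0.25. Of 13 megakaryocyte and platelet markers 4 were named, of which 2 rose and 2 fell, with array means of 8.63 to 9.20 in irradiated and 8.65 to 9.10 in control arrays. Of 11 granulocyte-monocyte markers Ms4a3 was named and rose, at 10.24 to 10.98 in irradiated and 7.17 to 9.92 in control arrays. Of 8 mast cell and basophil markers Fcer1a and Il1rl1 were named and rose, with array means of 6.22 to 7.16 in irradiated and 5.01 to 6.40 in control arrays. Their log2 differences were 1.77 and 1.42 in replicates 1 to 3 and 0.42 and 0.60 in replicates 4 to 6. Of 10 neutrophil markers none was named. The part of other cells in the globin values was not tested.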

How the data were processed

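Biotin-labelled RNA of KSL cells, sorted by FACS, was measured on 12 arrays, per the labels' protocols. The authors deposited log2 expression values, 1 per probe set. The submitters' processing notes name Partek without a role. How background was corrected and arrays were normalized is not given in the sources used here. Per the file headers, a second table from the authors lists changed probe sets with gene symbols, an unadjusted p-value, the ratio of irradiated over control, a signed fold, and F and sum of squares scores. The log2 ratios recomputed from the values differed from it by at most 2.36e-05.

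The members and lists were chosen with earlier results of these data known. Of 436 probe sets that name 1 gene, 426 were matched by gene ID to RefSeq (GRCm38.p6) for current symbols. The brightest named probe set stood for a list gene. All 22626 probe sets were fitted with limma 3.58.1 in R 4.3.3 (lmFit, eBayes), irradiated against control, with Benjamini-Hochberg adjustment and calls under 0.05. The fit was tested on simulated data. Errors of single probe sets are standard errors of the difference of the group means. Named beyond the members were list genes with a named probe set and the 6 genes most like the globin mean. The stem cell markers beside Ahsp, Satb1, and single arrays were named after their values were seen. No 2 arrays were identical (their differences had SDs of at least 0.28). Precision is limited by the number of arrays, with a median SE of 0.14 for log2 differences. Some genes of the lists enter the counts and medians but are not reported here.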

Additional observations from a re-analysis of the deposited data

How the results depend on the processing

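The 6 globin and Ahsp differences kept their sign and moved by less than 1 SD of the replicates in all 126 values computed under 9 alternatives and 12 fits that each left out 1 array. With single arrays left out, the log2 difference was 2.53 to 3.25 for Ahsp, 2.86 to 3.56 for alpha C and 1.95 to 2.35 for the median of the 6. All 6 passed in limma under quantile normalization, subtraction of array medians, and leaving out the dimmest 40% of probe sets. They also passed with a trended and robust prior, array weights, or a term for replicate number or replicate set. In replicates 4 to 6 alone all 6 passed, and in replicates 1 to 3 alone 3 did, with 3 arrays a group. The members were selected on this contrast, so nothing is read from these counts. Of all 22626 probe sets, 1276 were called higher under quantile normalization, 1423 with the trended and robust prior and 1564 with array weights. Without the dimmest 40% it was 1447 of 13575. Totals for the other settings follow. Within the replicate sets the differences went outside their single-array ranges for Ahsp (3.70 in replicates 1 to 3 and 2.12 in replicates 4 to 6) and alpha C (3.72 and 2.67), and in replicates 1 to 3 for the median (1.87). Alpha B (1.88) and beta A (1.86) did so in replicates 1 to 3, and beta B in both sets (1.44 and 1.77). Over all probe sets 1329 were called higher and 1238 lower. These counts were 2099 and 1833 with the replicate set as a term, 539 and 601 in replicates 1 to 3 alone, and 720 and 738 in replicates 4 to 6 alone. Without single arrays they ran from 740 to 1531 and from 773 to 1303. The higher count was under 1329 by more than 1.5 times without irradiated replicate 1 (740), 6 (769) or 5 (830) or control replicate 1 (837), and the lower count without irradiated replicate 1 (773). With array medians subtracted 1765 were higher and 1081 lower. Same-numbered arrays of the 2 groups had deviations correlated with r of 0.01 to 0.29, and 1 of 6 irradiated arrays correlated best with its own number. The replicate block gave 1451 higher and 1350 lower. By Spearman's rho 3 of the 6 genes most like the globin mean were again among the first 6. The causes of these changes were not tested. Signal over background is not given for these values.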

Other observations

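The named genes with the highest r to Ahsp were not among the 6 named genes most like the globin mean, though some of those 6 were also like Ahsp. By deviations from the group means over the 12 arrays, and chosen after their values were seen, the named genes with the highest r to Ahsp were Mt2 (0.97) and Mt1 (0.96), which encode metallothioneins that bind zinc and copper, Epdr1 (0.97) and Atp1b2, a subunit of the sodium pump (0.94). They were 7.06-fold, 5.31-fold, 4.80-fold and 5.55-fold higher in irradiated cells. Their r to the globin mean was lower, at 0.72, 0.66, 0.77 and 0.65. The arrays share the split between the replicate sets, and within the sets, a setting chosen after seeing the data, the r to Ahsp was 0.95 for Mt2, 0.96 for Mt1, 0.95 for Epdr1 and 0.79 for Atp1b2. Within the sets the r to the globin mean was 0.63, 0.69, 0.63 and 0.43. Of the 6 genes most like the globin mean, C1qtnf12 had an r to Ahsp of 0.91 and Add2 of 0.89, each in its probe set nearest to Ahsp. The others had 0.80 to 0.81. Within the sets the same probe sets had 0.84 for C1qtnf12, 0.94 for Add2, which is above that of Atp1b2, and 0.59 to 0.78 for the others. No p is given for these correlations.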
